A study of Schizosaccharomyces pombe with 3 samples.

Results

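Meiosis and sporulation are switched off in fission yeast cells that grow in rich medium, and 33 genes of this programme were followed here in a map of the corepressor subunit Ssn6. The genes were taken from a list of names chosen with earlier results of these data known. They were matched to the array by symbol, synonym or systematic name. They gave 65 features of the 10213 on the array, namely 33 intergenic features upstream of a listed gene and 32 coding features, since no coding feature was matched for mei4. The listed genes are 10 recombination genes (rec6, rec7, rec8, rec10, rec11, rec12, rec14, rec15, dmc1 and mek1). They also hold 3 master control genes (mei2, mei3 and mei4) and 6 sporulation genes (spo3, spo4, spo5, spo6, spn5 and spn6). The rest are 4 mcp genes, 6 genes grouped as meiotic divisions and 4 genes of entry and signalling. Class names are labels for grouping and do not describe the role of every gene in a class. The names mcp1, mcp5, mcp6, mcp7, mde10, spo3, spo5, crs1, moa1 and sgo1 stand on the array under systematic names.

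The study hybridised immunoprecipitated chromatin against input chromatin of the same experiment on 3 two-colour arrays, all of 1 group, here called replicates 1, 2 and 3. Per the labels' protocols, Schizosaccharomyces pombe cells with Ssn6 tagged by green fluorescent protein (GFP) were harvested in logarithmic growth in rich YES medium, fixed, sonicated and precipitated with an antibody against GFP. The DNA came from separate experiments and was amplified before labelling; no other genotype of the strain is stated. No untagged strain, mock precipitation or meiotic culture was analysed here, so input is the only background, and every value describes vegetative cells.

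Fission yeast enters meiosis when nutrients run out and mating pheromone is sensed through a MAP kinase cascade. The transcription factor Ste11 then activates mei2 and the pheromone genes, the inhibitor Mei3 releases the RNA-binding protein Mei2 from the kinase Pat1, and the forkhead factor Mei4 later turns on genes of the divisions and of spore formation. Ssn6 and the Tup1-like proteins Tup11 and Tup12 form a corepressor that DNA-binding factors bring to promoters, where it lowers transcription. Whether genes of this programme carry the corepressor in growing cells is the question that the map of these features addresses. Transcripts were not measured on these arrays, so which of the listed genes were silent was not tested.

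Which channel held the precipitate was not settled, and this bears on every value below. The labels place input in Cy3 and precipitate in Cy5 and state that dyes were not swapped, while the files call the channels A and B and give no dye. Over all features, ratios of channel B to channel A on replicate 2 ran against the other arrays (r = -0.48 with replicate 1, r = -0.54 with replicate 3), which ran together (r = 0.72). The deposited table of processed values holds channel A for replicate 2 and channel B for the other arrays, and that channel is taken here as the likely immunoprecipitate. Ratios are therefore log2 of channel B over A on replicates 1 and 3 and of A over B on replicate 2, with the median of each array set to 0. Replicate 2 was turned with the data in view. With channel B over A on all arrays, each replicate 2 value below takes the opposite sign, and 0 features were called in either direction over the whole array by limma (138 had an unadjusted p under 0.05, 0 of them listed genes). The sign of all ratios could also be turned as a whole.

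Coverage of the listed genes was uneven between arrays. Replicate 2 gave a ratio for 33 upstream and 32 coding features, replicate 1 for 8 and 25, and replicate 3 for 11 and 14. Over the whole array the shares with a ratio were 56.6%, 96.3% and 44.6% on replicates 1, 2 and 3. All 3 arrays measured 20 features of the listed genes (30.8%), 7 upstream and 13 coding; another 18 were measured on 2 arrays, and 27 on replicate 2 alone, 21 of them upstream. Of the 22 upstream features without a ratio on replicate 3, 8 had lost their spots in channel A alone, 4 in both channels and 10 differed between spots. A feature on all arrays thus had signal in both channels each time, and the 20 are not a sample of all 65. The 95th percentile of the negative-control spots in the likely immunoprecipitate channel was 1959, 222.7 and 4452 units of mean pixel intensity on replicates 1, 2 and 3. Features above it made up 34.7%, 100% and 17.5% of those with a ratio, and a ratio below it has an uncertain size. Among the 20 features, 4 stood above it on all arrays: upstream of mcp7 and over the coding regions of ssm4, mei3 and mcp5. The 2 spots of a listed feature differed by a median of 0.21, 0.14 and 0.16 on the log2 scale on replicates 1, 2 and 3. Only 1 spot gave the ratio on replicate 1 upstream of rec10 and rec12 and over rec8, dmc1, mei2, byr2, mes1 and moa1. The same held on replicate 3 upstream of rec8 and crs1 and over spn5 and spo4.

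Few listed features were called. A feature measured on all arrays was called enriched or depleted when limma's adjusted p against 0 was under 0.05, with adjustment over 3960 features. Upstream, 1 of 7 was called enriched, that of mcp7, and 0 were called depleted, where 19.7% of all intergenic features tested were enriched and 0.904% depleted. Over coding regions 1 of 13 was called enriched, that of ssm4, and 3 were called depleted, those of rec8, spo6 and sgo1, against 2.43% enriched and 7.86% depleted among all coding features tested. The other 15 had means between -1.08 and 0.82 and adjusted p between 0.0509 and 0.991. Without replicate 2, the array whose channels are in question, mcp7 and ssm4 were called enriched, where 19.6% of intergenic and 2.66% of coding features were, and spn6 joined the 3 depleted coding features, where 19.5% of coding and 2.41% of intergenic features were. The median of the upstream means was 0.45 on the log2 scale, beside 0.39 for all upstream features of genes, and the median of the coding means was -0.42, beside -0.28 for all coding features. With channel B over A throughout, 0 of the 20 were called (adjusted p 0.777 to 0.979).

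**Figure D1:**
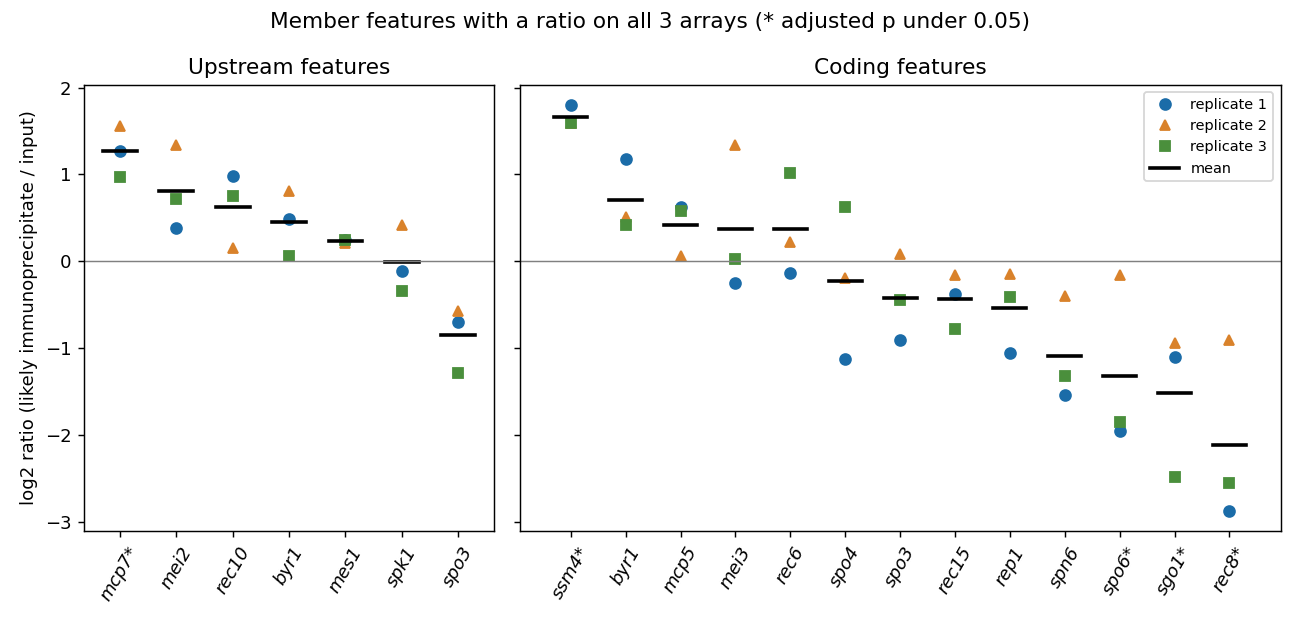
Log2 ratio of likely immunoprecipitate over input (vertical axis) for the 20 features of listed genes with a ratio on all 3 arrays, upstream features at left and coding features at right. Points are single arrays, bars are means over 3 arrays, and an asterisk marks an adjusted p under 0.05; mcp7 upstream (0.97 to 1.56) and ssm4 coding (1.59 to 1.80) stand high on every array, and rec8 (-2.87 to -0.91) and sgo1 (-2.48 to -0.94) coding low on every array.

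The recombination genes encode the machinery of programmed DNA breaks and their repair. Rec12, the homologue of Spo11, cuts the DNA with Rec6, Rec7, Rec14 and Rec15; Rec10 belongs to the linear elements along meiotic chromosomes; Rec8 and Rec11 are meiotic cohesin subunits; Dmc1 is the meiotic strand-exchange protein and Mek1 a checkpoint kinase. The coding feature of rec8 had the lowest mean of the listed features on all arrays. Its log2 ratio was -2.87, -0.91 and -2.55 on replicates 1, 2 and 3, the first from 1 spot, with a mean of -2.11 ± 1.05 (SD, n = 3 arrays, as for all means below) or 0.232-fold (adjusted p = 0.0082). All 3 arrays lay below 0, replicate 2 the least. Mean pixel intensities before centring were 1452, 4646.5 and 1454.5 in the likely immunoprecipitate, against 5883, 10143 and 5530 in input, and only replicate 2 stood above the negative-control limit. Without replicate 3 the mean was -1.89 and the call was lost (adjusted p = 0.112), without replicate 1 it was -1.73 (0.009) and without replicate 2 it was -2.71 (0.012). The call was also lost with the local background subtracted (-2.73, 0.0561). It was -1.50 with channel B over A throughout (adjusted p = 0.777).

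Upstream of rec8 the ratio stood on the other side of 0, at 0.70 on replicate 2 and 4.13 on replicate 3, where 1 spot gave signal, with no ratio on replicate 1. In the fit over features with 2 or more arrays this feature was called enriched (mean 2.41, adjusted p = 0.0321), where 13.7% of intergenic features were and 0.358% were depleted. The SD of its 2 values was 2.43. As channel B over A they were -0.70 and 4.13, on both sides of 0. The upstream value exceeded the coding value by 1.61 on replicate 2 and by 6.68 on replicate 3. In RefSeq assembly ASM294v3, rec8 lies at chrII:2568938-2570810 on the forward strand in 5 coding exons, and the gap to its tandem neighbour atp7 spans chrII:2568229-2568937 (709 bases). The genome build behind the array and the span of each spotted feature were not given in the sources used here, so gaps are shown as context. The end of this gap and the first bases of the gene, chrII:2568668-2568967 on the forward strand, are printed because rec8 differs between its upstream and coding features and because this window holds 2 MluI boxes, the letters ACGCGT bound by the cell-cycle factor MBF, in capitals.
rec8: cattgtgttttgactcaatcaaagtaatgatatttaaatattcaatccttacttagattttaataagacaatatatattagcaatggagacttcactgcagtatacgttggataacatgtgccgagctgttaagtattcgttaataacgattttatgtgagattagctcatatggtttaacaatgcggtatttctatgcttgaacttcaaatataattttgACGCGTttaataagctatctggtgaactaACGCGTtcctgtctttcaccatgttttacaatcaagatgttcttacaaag

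Among the other recombination genes 3 features had ratios on all arrays and 0 of these were called. Over the whole array, 19.7% of intergenic and 2.43% of coding features tested were enriched, and 0.904% and 7.86% depleted. Upstream of rec10 the values were 0.98, 0.15 and 0.75 (mean 0.63 ± 0.43, adjusted p = 0.183), all above 0. Over the coding region of rec6 they were -0.13, 0.22 and 1.01 (0.37 ± 0.58, 0.472), on both sides of 0. Over rec15 the values were -0.37, -0.16 and -0.77 (-0.43 ± 0.31, 0.347), all below 0.

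Several recombination genes were measured on replicates 1 and 2 only, among them rec7, whose coding feature had 1.05 and 2.05. As channel B over A these values were 1.05 and -2.05, on both sides of 0. With replicate 2 turned, the feature was called enriched in the fit over 2 or more arrays (adjusted p = 0.0412). There 1.93% of coding features were enriched and 4.32% depleted. That fit called 2 of 12 listed upstream features enriched (mcp7 and rec8) and 0 depleted, and of 26 coding features 2 enriched (ssm4 and rec7) and 3 depleted. Upstream of rec7 the ratio was 0.69 on replicate 2, and the divergent neighbour tol1, which shares the gap, had -0.23 there. Over dmc1 the ratio was 1.84 and 0.08, over rec10 0.71 and 0.03, over rec11 -0.12 and -0.26, and over rec14 -0.37 and -0.70. Thus dmc1 and rec10 were high on replicate 1, dmc1 from 1 spot, and near 0 on replicate 2. Upstream of rec12 the ratio was -0.11 on replicate 1 and 1.08 on replicate 2, and upstream of rec11 it was -0.99 on replicate 2 and -0.18 on replicate 3. The rest rested on replicate 2 alone: 1.21 over rec12, 0.24 over mek1, and upstream 0.44 at rec15, 0.37 at dmc1, 0.24 at rec6, -0.16 at mek1 and -1.09 at rec14. On replicate 2 the recombination genes thus lay between -1.09 upstream of rec14 and 2.05 over rec7.

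Replicate 2 was the one array that measured all features of the master control genes. Upstream of mei3, which encodes the inhibitor of Pat1, it gave 1.87, in the turned reading the highest upstream value among the listed genes and at the 97.5th percentile of that array, from 2 spots at 1.86 and 1.87. Replicates 1 and 3 gave no ratio there. Over its coding region the ratio was -0.24, 1.34 and 0.03 (mean 0.38 ± 0.85, adjusted p = 0.508), so replicate 2 alone was high, although each array exceeded the negative-control limit. Without replicate 2 the mean was -0.11, and with channel B over A throughout it was -0.52.

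Upstream of mei2, which encodes the RNA-binding protein that starts premeiotic DNA synthesis and the divisions, the ratio was 0.38, 1.34 and 0.72 on replicates 1, 2 and 3. All were above 0 but the mean of 0.82 ± 0.49 was not called (adjusted p = 0.104), and it was -0.08 with channel B over A throughout. Its coding feature had 1.06 and 0.79 on replicates 1 and 2 (adjusted p = 0.177 over 2 or more arrays). The gap upstream of mei2, chrI:4513293-4517541, is the longest of the listed genes at 4249 bases and is shared with the divergent gene omt2, whose upstream feature had 5.53 on replicate 1 and 0.55 on replicate 2. A separate long intergenic feature named for mei2 had -0.0014 on replicate 2. Upstream of mei4, the forkhead factor gene, replicate 2 gave 0.03. The upstream values of mei3 and mei4 rest on replicate 2 alone, and 0 of the 2 mei features on all arrays were called. With 19.7% of intergenic and 2.43% of coding features tested enriched, and 0.904% and 7.86% depleted, a count of 0 in 2 says little.

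The genes mei2 and mei3, whose upstream features had the higher values among the mei genes on replicate 2, are shown around their annotated transcript starts, with 270 bases before and 30 after. In mei2 (chrI:4514996-4515295, reverse strand) the capitals mark 2 copies of the Ste11 box TTCTTTGTT; in mei3 (chrII:719449-719748, forward strand) none of the motifs searched was found and no letter is in capitals.
mei2: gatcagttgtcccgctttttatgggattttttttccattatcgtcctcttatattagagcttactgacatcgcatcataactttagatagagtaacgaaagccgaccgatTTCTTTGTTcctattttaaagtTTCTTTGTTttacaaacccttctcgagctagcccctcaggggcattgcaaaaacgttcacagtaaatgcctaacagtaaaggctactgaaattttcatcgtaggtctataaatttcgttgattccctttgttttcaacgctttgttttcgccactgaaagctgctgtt
mei3: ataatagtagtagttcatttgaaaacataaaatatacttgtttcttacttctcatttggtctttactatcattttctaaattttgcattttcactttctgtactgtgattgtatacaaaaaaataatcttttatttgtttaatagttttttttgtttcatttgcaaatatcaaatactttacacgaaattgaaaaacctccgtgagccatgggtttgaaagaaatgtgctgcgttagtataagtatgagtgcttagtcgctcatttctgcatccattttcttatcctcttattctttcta

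Among the sporulation genes 1 of 4 coding features tested was called, that of spo6, which was depleted. Of all coding features tested 7.86% were depleted and 2.43% enriched, and a count of 1 in so few says little about the class. Spo4 and Spo6 form a kinase of the Cdc7 and Dbf4 type needed for the second division, Spo5 is an RNA-binding protein, Spo3 is a protein of the forespore membrane, and Spn5 and Spn6 are septins around that membrane. Over the coding region of spo6 the ratio was -1.95, -0.15 and -1.85, with a mean of -1.32 ± 1.01 (0.402-fold, adjusted p = 0.048). Replicates 1 and 3 were low and replicate 2 was near 0. Intensities were 1550.5, 11239.5 and 2747.5 in the likely immunoprecipitate, against 3306, 14507.5 and 6448.5 in input, and only replicate 2 stood above the negative-control limit. Without replicate 1 the mean was -1.001 (adjusted p = 0.179) and without replicate 3 it was -1.05 (0.349), so the call needed both, whereas without replicate 2 it was -1.90 (0.014). The call was also lost with separate centring of intergenic and coding features (-1.10, 0.0593) and with the local background subtracted (-1.55, 0.114). With channel B over A throughout it was -1.21 (0.777).

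Upstream of spo6 replicate 2 gave 1.42, at the 95th percentile of the array, and the upstream feature of its divergent neighbour SPBC1778.03C, in the same gap (chrII:3102166-3103283, 1118 bases), gave 1.36. The window chrII:3102827-3103126 on the forward strand is printed because the upstream and coding features of spo6 differ on this array, and the capitals mark 2 copies of GTAAACA, the core bound by forkhead factors such as Mei4, or its reverse complement.
spo6: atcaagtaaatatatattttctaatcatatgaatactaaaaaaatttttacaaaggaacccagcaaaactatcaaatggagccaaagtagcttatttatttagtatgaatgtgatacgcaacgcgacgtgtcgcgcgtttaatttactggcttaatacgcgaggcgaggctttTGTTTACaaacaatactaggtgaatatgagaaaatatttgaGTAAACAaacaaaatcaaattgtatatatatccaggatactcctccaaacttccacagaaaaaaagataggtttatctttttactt

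Of the other sporulation features on all arrays 0 were called, a count too small to read against the shares of all features. Those were 19.7% enriched and 0.904% depleted among intergenic features, and 2.43% and 7.86% among coding features. The septin gene spn6 came nearest over its coding region, with -1.53, -0.40 and -1.31 (mean -1.08 ± 0.60, adjusted p = 0.0509). Upstream of spo3 the ratio was -0.70, -0.57 and -1.28 (-0.85 ± 0.38, 0.0849), the only upstream feature of the 7 with a value below 0 on every array, and over its coding region it was -0.91, 0.09 and -0.44 (-0.42 ± 0.50, 0.390). Over spo4 the values were -1.13, -0.19 and 0.63 (-0.23 ± 0.88, 0.703), which runs across 0. The value above 0 there came from 1 spot. Upstream of spo5 both arrays with a ratio were high, with 1.05 and 0.93 on replicates 2 and 3 (adjusted p = 0.147 over 2 or more arrays), while its coding feature had -1.01 on replicate 2. Over spn5 it was 0.82 and 0.50 on the same arrays. Upstream values on replicate 2 alone were 0.71 at spn5, -0.07 at spn6 and -0.63 at spo4.

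The mcp genes encode meiotic coiled-coil proteins, of which Mcp7 works with Meu13 in Dmc1-dependent recombination, Mcp5 anchors dynein at the cell cortex and Mcp6 acts at the spindle pole body during nuclear movement. Upstream of mcp7 lay the only upstream feature called. Its log2 ratio was 1.27, 1.56 and 0.97 on replicates 1, 2 and 3, a mean of 1.27 ± 0.29 or 2.41-fold (95% confidence interval 0.62 to 1.92 on the log2 scale, adjusted p = 0.0203). All arrays were above 0 and exceeded the negative-control limit, with intensities of 2899, 8845.5 and 4517.5 in the likely immunoprecipitate, against 669.5, 3485 and 1514.5 in input. Without replicate 1 the mean was 1.27 (adjusted p = 0.055), without replicate 3 it was 1.42 (0.141), and without replicate 2 it was 1.12 (0.040). Subtraction of the local background gave 1.54 (0.0652), and separate centring of intergenic and coding features gave 0.91 (0.0852). The mean with channel B over A throughout was 0.23 (0.942).

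The gap upstream of mcp7, chrI:576623-578520, is 1898 bases long and shared with the divergent gene erg11, for which no feature was matched. The upstream feature of ubp8, the convergent gene on the other side, had 0.59, 0.54 and 0.95 (mean 0.69 ± 0.22, adjusted p = 0.131). The window chrI:578180-578479 on the forward strand is shown as the promoter side of the called feature, and none of the motifs searched was found in it.
mcp7: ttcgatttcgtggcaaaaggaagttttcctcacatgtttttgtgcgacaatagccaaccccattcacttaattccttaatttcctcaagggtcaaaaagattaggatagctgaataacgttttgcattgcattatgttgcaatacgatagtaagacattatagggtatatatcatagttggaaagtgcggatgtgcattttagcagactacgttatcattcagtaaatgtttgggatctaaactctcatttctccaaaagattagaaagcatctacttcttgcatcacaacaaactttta

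Of the other mcp features only the coding feature of mcp5 was measured on all arrays, and it was not called. The coding feature of mcp7 had 1.08 on replicate 2, on the same side as the gene's upstream value. Over mcp5 the coding ratio was 0.63, 0.06 and 0.57 (mean 0.42 ± 0.31, adjusted p = 0.360), with each array over the negative-control limit, and the upstream feature had 0.74 on replicate 2. The coding features of mcp1 and mcp6 had 0.23 and -0.27, and -0.27 and 0.17, on replicates 1 and 2, and their upstream features had -0.38 and -0.10 on replicate 2.

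The class grouped as meiotic divisions held both the highest mean of a listed feature on all arrays and one of the lowest. The coding region of ssm4, which encodes a dynactin subunit used in nuclear movement during meiotic prophase, had 1.80, 1.59 and 1.59, a mean of 1.66 ± 0.12 or 3.16-fold (95% confidence interval 1.03 to 2.29 on the log2 scale, adjusted p = 0.0056). The arrays were closer to each other than at any other called feature. Intensities were 3174.5, 5878.5 and 4489 in the likely immunoprecipitate, against 504.5, 2271 and 976 in input, so each array exceeded the negative-control limit. Without replicate 3 the mean was 1.70 and the call was lost (adjusted p = 0.078), without replicate 1 it was 1.59 (0.012) and without replicate 2 it was 1.69 (0.016). Channel B over A throughout gave 0.60 (0.884).

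Some but not all features beside ssm4, which lies at chrI:4534674-4536686 on the reverse strand in 1 coding exon, also had high ratios. Its upstream feature had 0.71 on replicate 2. The upstream feature of but1, the tandem gene downstream, had 1.71 and 2.33 on replicates 1 and 2, and that of the upstream neighbour tpr1 had 1.13 and 0.95. The coding features of both neighbours were measured on all arrays and were not called. Over tpr1 the ratio was -1.04, 0.03 and -0.0025 (mean -0.34 ± 0.61, adjusted p = 0.515). Over but1 it was 0.88, 1.07 and -0.11 (0.61 ± 0.63, 0.229). On replicates 1 and 2 the feature of but1, at the 3′ side of ssm4, was therefore about as high as the coding feature or higher.

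The coding feature of sgo1, whose product shugoshin shields Rec8 at centromeres in the first division, had -1.10, -0.94 and -2.48 (mean -1.51 ± 0.84, 0.352-fold, adjusted p = 0.0227). All arrays were below 0, replicate 3 the most, and replicates 1 and 2 stood above the negative-control limit. Intensities were 2916.5, 2493 and 2395 in the likely immunoprecipitate, against 3303.5, 5571 and 8686.5 in input. Without replicate 3 the mean was -1.02 and the call was lost (adjusted p = 0.293), without replicate 1 it was -1.71 (0.010) and without replicate 2 it was -1.79 (0.027). The call was also lost with loess (-1.02, 0.0517) and with the local background subtracted (-3.24, 0.132). The mean was -0.88 with channel B over A throughout (0.791), and the upstream feature had 0.44 on replicate 2.

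The remaining genes of the class grouped as meiotic divisions gave smaller or discordant values. Upstream of mes1, an inhibitor of the anaphase-promoting complex needed to enter the second division, the arrays were nearly equal at 0.25, 0.22 and 0.24 (mean 0.24 ± 0.02, adjusted p = 0.604), and its coding feature had 0.72 and 0.30 on replicates 1 and 2. Upstream of crs1, which encodes a meiotic cyclin, replicates 2 and 3 disagreed at -1.19 and 1.22, the latter from 1 spot. The coding feature of crs1 had -0.24 on replicate 2. For the coding feature of moa1, whose product orients sister kinetochores with Rec8, the ratio was 0.23 and 0.02 on replicates 1 and 2, and its upstream feature had -0.37 on replicate 2. The protease gene mde10 had 0.15 over its coding region and -0.53 upstream on replicate 2.

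**Figure D2:**
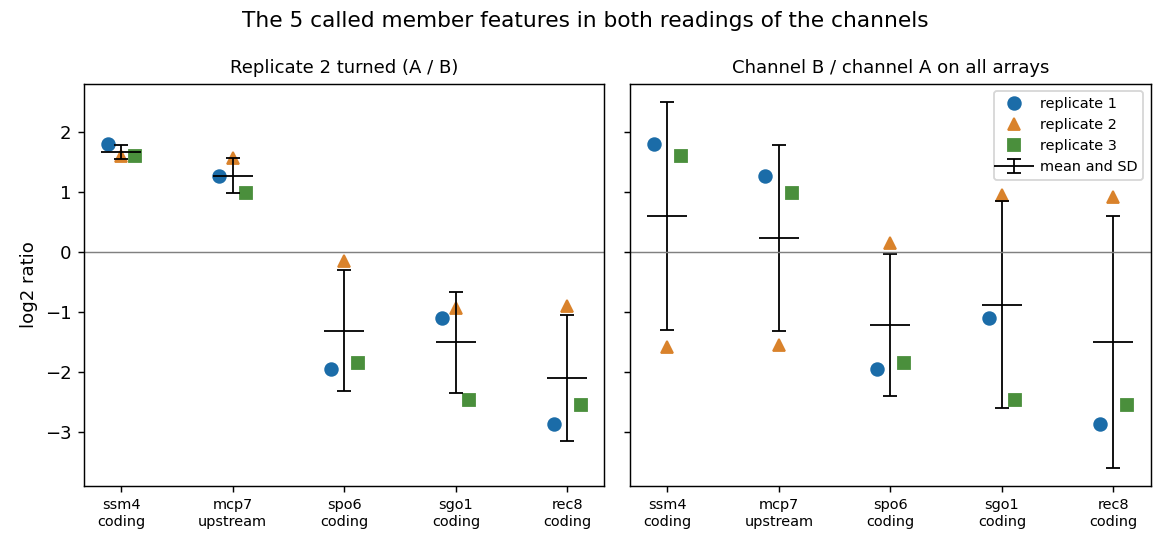
Log2 ratio (vertical axis) of the 5 called features in both readings of the channels, with replicate 2 turned at left and B over A on every array at right. Points are arrays and bars the mean with its SD over 3 arrays; in the second reading replicate 2 stands on the other side of 0 at every feature, and the mean of mcp7 is 0.23, against 1.27 in the first.

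Of the entry and signalling features, 2 upstream and 2 coding ones were tested and 0 were called. Among all features tested, 19.7% of intergenic and 2.43% of coding ones were enriched, and 0.904% and 7.86% depleted. Byr2, Byr1 and Spk1 are the MAP kinase cascade of the pheromone response, and Rep1 activates transcription for premeiotic DNA synthesis. Over the coding region of byr1 the ratio was 1.18, 0.51 and 0.42 (mean 0.70 ± 0.42, adjusted p = 0.141) and upstream it was 0.48, 0.81 and 0.06 (0.45 ± 0.38, 0.335), above 0 on every array in both places. Upstream of spk1 the values -0.11, 0.42 and -0.34 straddled 0 (-0.01 ± 0.39, 0.991), its coding feature had 0.43 and 0.12 on replicates 1 and 2, and the upstream feature of its divergent neighbour eta2 in the same gap had 0.12, 1.15 and 1.19. Over rep1 the coding ratio was below 0 on every array with -1.06, -0.15 and -0.41 (-0.54 ± 0.47, 0.258). On replicate 2 the upstream features of rep1 and byr2 had 0.28 and 0.49, and the coding feature of byr2 had 0.62 and -0.53 on replicates 1 and 2.

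The classes were set against each other on replicate 2, which measured all 65 features, as a description of 1 array with no test. Upstream, the median was 0.31 for recombination (-1.09 to 1.08, 10 features), 1.34 for master control (0.03 to 1.87, 3 features) and 0.32 for sporulation (-0.63 to 1.42, 6 features), beside 0.07 for all upstream features of genes on that array. The 3 ranges overlapped. Over coding regions it was 0.06 for recombination (-0.91 to 2.05), 1.07 for master control (0.79 and 1.34, the values of mei2 and mei3) and -0.17 for sporulation (-1.01 to 0.82), beside -0.08 for all coding features. Both coding features of master control thus stood inside the recombination range. Upstream medians of the other classes were 0.32 for mcp, -0.08 for the divisions and 0.46 for entry and signalling. Read as channel B over A, each of these medians changes sign.

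**Figure D3:**
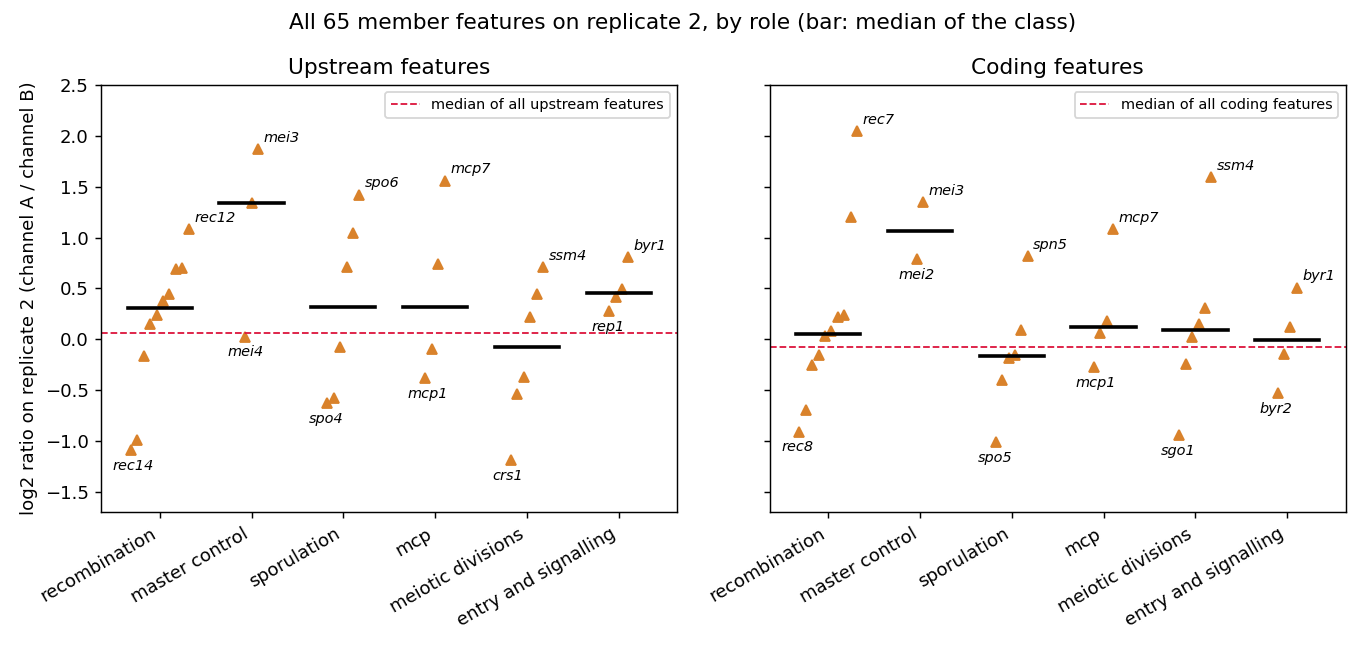
Log2 ratio on replicate 2 (channel A over channel B, vertical axis) of all 65 features of listed genes, upstream at left and coding at right, by class. Each triangle is 1 feature on 1 array, bars are class medians and the dashed line is the median of all upstream or all coding features; mei3 at 1.87 tops the upstream panel and rec7 at 2.05 the coding panel.

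The classes could not be compared in this way on all arrays, because 1 upstream feature was measured throughout in each of recombination (rec10), master control (mei2) and sporulation (spo3). Over coding regions the median of the means over 3 arrays was -0.43 for recombination (3 features) and -0.75 for sporulation (4 features), and the only master control feature was mei3 at 0.38. Of the 4 sporulation coding features 2 were below 0 on all arrays, as were 34.7% of all coding features tested. Upstream 5 of the 7 listed features were above 0 on all arrays, beside 48% of all intergenic features tested, and 1, that of spo3, was below 0 on all, beside 9.95%.

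Upstream and coding features of the same gene were then compared within each array. Over 625 genes with both features on all arrays, the upstream ratio was higher in 28.8% and lower in 0.8% (limma, adjusted p under 0.05). Only spo3 and byr1 among the listed genes had both, and neither was called. The difference upstream minus coding was 0.21, -0.67 and -0.84 at spo3 (mean -0.43 ± 0.56, 95% confidence interval -1.32 to 0.46, adjusted p = 0.477) and -0.70, 0.30 and -0.36 at byr1 (-0.25 ± 0.51, -1.14 to 0.64, 0.686), on both sides of 0 in each gene. Channel B over A throughout gave 0.01 at spo3 and -0.45 at byr1. On replicate 2 alone the upstream ratio was higher than the coding ratio in 17 of 32 listed genes (53.1%), against 62% of 4371 genes on the array; as channel B over A it was higher in 15 of 32 (46.9%), against 38%. With replicate 2 turned the differences ran from -1.36 at rec7 to 2.06 at spo5, with a median of 0.07, against 0.20 over all genes. In that reading rec7 was higher over its coding region, and spo5, rec8 and spo6 higher upstream.

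**Figure D4:**
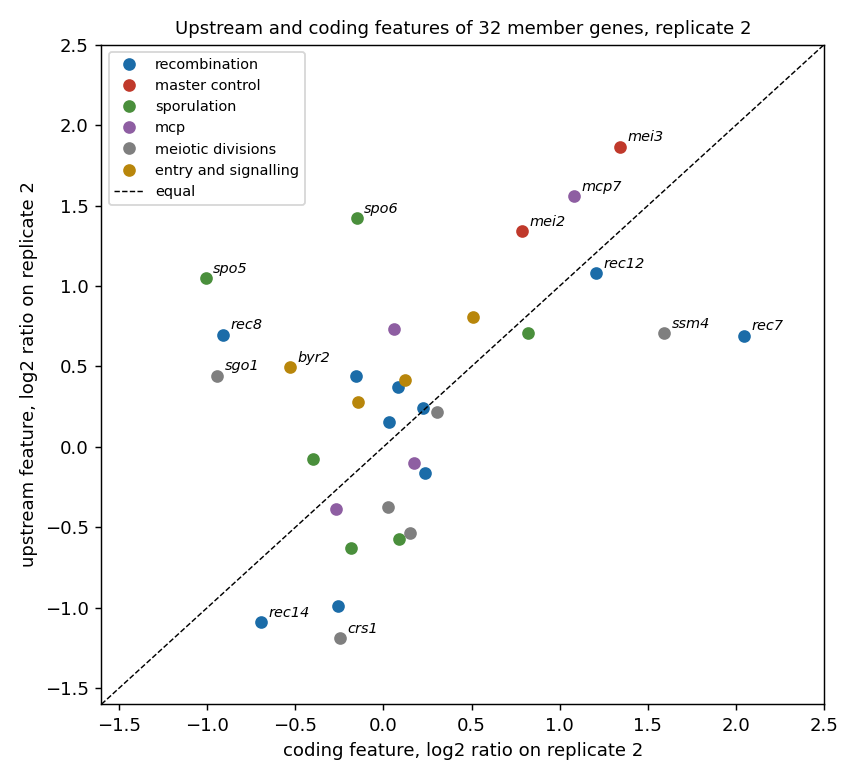
Log2 ratio on replicate 2 of the upstream feature (vertical axis) against that of the coding feature (horizontal axis) for the 32 listed genes with both, coloured by class. Each point is 1 gene on 1 array and the dashed line marks equal values; 17 genes lie above it, with mei3 and mcp7 high on both axes, spo5, spo6 and rec8 above the line, and rec7 and ssm4 below it.

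The labels define a binding list by the median percentile rank of a feature over arrays, with the 85th percentile as the limit. Rebuilt from the ratios here, it held 14 of the 65 features. Upstream these were 9 of 33 (27.3%), those of mei3, rec7, rec8, spo5, spo6, spn5, mcp5, mcp7 and ssm4, beside 17% of all intergenic features ranked. Over coding regions they were 5 of 32 (15.6%), those of mei2, rec7, rec12, mcp7 and ssm4, beside 5.18% of all coding features ranked. Because the listed genes were chosen with earlier results of these data known, these shares are a description only. Of the 14, 8 were ranked on replicate 2 alone, 6 upstream and 2 coding; among all features ranked on replicate 2 alone the list held 11.3% of intergenic and 7.76% of coding ones. Upstream of rec7 (85), spn5 (85.5), ssm4 (85.5), mcp5 (86.2) and spo5 (87.1) the median percentile lay close to the limit. With channel B over A throughout the list held 6 of the 65, beside 9.98% of all features ranked. Without replicate 2 it held 5 of the 38 still ranked, beside 16.1%, and among features ranked on all 3 arrays it held 2 of 20, mcp7 upstream and ssm4 coding, beside 9.75%.

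Signs agreed between arrays in most listed features after replicate 2 was turned. That array was turned because it ran against the other arrays, so agreement in both pairs with replicate 2 follows largely from this choice. Only the pair of replicates 1 and 3 does not depend on it. The share on the same side of 0 was 25 of 33 for replicates 1 and 2 (75.8%, against 60.7% of all features measured on both), 17 of 20 for replicates 1 and 3 (85%, against 77.1%) and 21 of 25 for replicates 2 and 3 (84%, against 62.6%). For both pairs with replicate 2 the reading as channel B over A throughout turns agreement into disagreement, leaving 8 of 33 and 4 of 25 on the same side.

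Sequence around the starts of the listed genes was searched on both strands for exact matches to 4 motifs. The window was the 300 bases from 270 before to 30 after the annotated gene start, for 5123 genes in ASM294v3. At rec6, rec7, rec8, rec12, mek1, spo4, spn5, mcp6, mde10, moa1 and sgo1 this was the coding start, so no transcript start placed the window. At rec6, rec15, crs1 and sgo1 the window ran past the upstream gap into the neighbouring gene. The forkhead core GTAAACA was present in 14 of 33 listed genes (42.4%), against 16.9% of all promoters, and the MluI box ACGCGT in 10 (30.3%), against 3.14%. The Ste11 box TTCTTTGTT was present in 3, mei2, rep1 and spk1 (9.09%, against 2.01%), and the Atf1 core TGACGT in 3, spn5, mde10 and byr2 (9.09%, against 5.95%). The reverse complement of the Ste11 box shares letters with the forkhead core at rep1 and spk1, where matches overlap, and the MluI box is its own reverse complement. MluI boxes stood at 7 of 10 recombination genes (rec6, rec7, rec8, rec10, rec11, rec12 and dmc1) and at 0 of the 3 master control and 0 of the 6 sporulation genes, while forkhead cores stood at 3 of 10 recombination genes (rec7, rec11 and dmc1), 1 of the 3 master control genes (mei4) and 3 of the 6 sporulation genes (spo4, spo6 and spn5). On replicate 2 the median upstream ratio was 0.31 at genes with an MluI box and 0.44 at those without, and 0.25 with a forkhead core and 0.49 without. Ranges with the motif ran from -0.99 to 1.08 and from -0.99 to 1.42. These values describe 1 array, and a link between motif and ratio was not tested. The span of the spotted features was not given, so a window need not lie inside the feature whose ratio is used. The gaps upstream of the listed genes ran from 132 bases at rec6 to 4249 at mei2 with a median of 911, and 12 of 33 were shared with a divergent neighbour.

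Other genes of the programme were counted in the same fit. Of other recombination genes 0 of 2 upstream features were called, and 1 of 10 coding features was called depleted, that of the repair gene rhp54 (-1.16 ± 0.56). Upstream of other entry and control genes 1 of 4 was enriched, that of the zinc finger factor gene rsv2 (2.24 ± 0.35), and 0 of 15 coding features were called. Other sporulation genes had 1 of 5 upstream features enriched, that of psy1, which encodes a syntaxin of the forespore membrane (1.08 ± 0.26), and of 14 coding features 2 enriched, those of meu10 (2.10 ± 0.51) and isp3 (1.17 ± 0.24), genes of the spore wall, and 1 depleted, that of the glucan synthase gene mok12 (-1.26 ± 0.25). These counts are small. Of all intergenic features tested 19.7% were enriched and 0.904% depleted, and of all coding features tested 2.43% were enriched and 7.86% depleted.

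The mug genes, named for transcripts that increase in meiosis, form the longest of these lists. Upstream 10 of 40 were enriched and 1 depleted, beside 19.7% and 0.904% of all intergenic features tested, and over coding regions 6 of 89 were enriched and 7 depleted, beside 2.43% and 7.86% of all coding features tested. The called mug features with the largest means were those upstream of mug24 (3.03 ± 0.42) and mug153 (2.40 ± 0.66) and over mug114 (2.70 ± 0.88), mug115 (2.37 ± 0.40), mug14 (2.08 ± 0.80) and mug126 (-2.03 ± 1.17). On all arrays the first 5 were above 0 and exceeded the negative-control limit, with means larger than that of any listed feature on all arrays. With channel B over A throughout their means lay between 0.09 and 0.69, and 0 were called.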

How the data were processed

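Per the labels' protocols, arrays were scanned and quantified with TIGR Spotfinder and median-normalised in GeneSpring by the authors; no version is stated. The deposited scanner files give spot intensity for channels A and B; whether background was subtracted is not stated. The deposited series table holds log10 values that equal 1 channel's intensity, not a ratio, so it served as an alternative. From the intensities, log2 ratios were computed here, since the authors deposited none: spots with signal in both channels were kept, arrays median-centred over feature spots and spots of a feature averaged. Precision is limited by the number of arrays.

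The test against 0 used lmFit and eBayes of limma 3.58.1 (R 4.3.3), two-sided, for features measured on all 3 arrays, and p-values were adjusted by Benjamini-Hochberg over 3960 features; differences upstream minus coding were tested likewise, with adjustment over 625 genes. On simulated data with the fitted spread, the script called 14.9% of features shifted by 1 on the log2 scale and 92.5% of those shifted by 2. Of the simulated calls 4.83% were false. Shifts near 1 were thus mostly missed, and a feature not called is not shown to lack such a shift. The prior had 8.08 degrees of freedom and an SD of 0.55. The labels describe separate experiments. Alternatives covered orientation, background, loess, centring, dim features, the number of arrays and each array left out.

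The members, classes and lists were chosen with earlier results of these data known. Every listed member is described; of each other list at most 4 called features with the largest absolute mean are named, and at most 6 mug features. Positions, motif windows and sequences come from RefSeq ASM294v3, with windows cut from its genome at annotated starts in place of a promoter table. Names ending in missing carry no member.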

Additional observations from a re-analysis of the deposited data

How the results depend on the processing

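No paired analysis was possible because all 3 arrays form 1 group. The counts of called features were 1 enriched and 0 depleted upstream, and 1 enriched and 3 depleted over coding regions. Enriched upstream features were 0 with channel B over channel A throughout, with local background subtracted, with intergenic and coding features centred separately and with the deposited values, and 2 with loess and with features on 2 or more arrays. Loess and separate centring each called 1 upstream feature depleted. Enriched coding features were 0 with channel B over A and with the deposited values and 2 over features on 2 or more arrays, and depleted ones were 0 with channel B over A, local background subtracted and the deposited values. Leaving out 1 array gave 0 to 1 enriched upstream, 0 to 1 enriched coding and 0 to 4 depleted coding features, with 0 of each without replicate 3. Shares of all features called were set beside these counts only for channel B over A, for 2 or more arrays and without replicate 2. In the other settings the counts are therefore not read as results about the listed genes. The upstream median of 0.45, over 7 features, was -0.079 with channel B over A, 0.56 with local background subtracted and 0.70 with normexp. It was 0.25 with loess, 0.088 with separate centring and 0.27 to 0.57 with 1 array left out. The deposited values, which are not ratios, gave 0.011 over 20 features, a different set. The coding median of -0.42, over 13 features, was -0.19 with loess, -0.21 with separate centring and -0.57 to -0.18 with 1 array left out. Over a larger set of 26 features it was 0.086 with 2 or more arrays and 0.14 with the deposited values. The binding list of 14 held 6 with channel B over A, 9 with separate centring, 6 with the deposited values, 2 when ranked on all 3 arrays and 5 to 16 with 1 array left out (5 without replicate 2).

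Signs of uncalled means turned as follows. Channel B over A gave -0.079 upstream of mei2, -0.52 over mei3, -0.089 upstream of byr1 and 0.012 for spo3 upstream minus coding. The deposited values, which are not ratios, gave -0.18 upstream of rec10, 0.50 over rec15, 0.022 upstream of spo3 and 0.23 over it, 0.11 over spo4, -0.76 over mcp5, -0.061 upstream of mes1, 1.05 upstream of spk1, 0.58 for byr1 upstream minus coding, and, for the called spo6 coding feature, 0.39. Local background subtraction gave -0.16 over mcp5 and 0.046 upstream of spk1, normexp -0.33 and 0.15, loess -0.14 upstream of mes1 and 0.25 upstream of spk1, and separate centring -0.13 upstream of mes1. With 1 array left out, the mean over mei3 ran from -0.11 (without replicate 2) to 0.69, that over spo4 from -0.66 to 0.22 (without replicate 1), and that upstream of spk1 from -0.22 to 0.16 (without replicate 3; 0.042 without replicate 1). The cause of these changes was not tested.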
